A study of Mus musculus with 6 samples.

Results

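The genes described here are effectors of the hypoxia-inducible factors (HIF) that were read in RAW 264.7 cells, a mouse macrophage-like cell line. They are Adm, Vegfa, Ndrg1, Bnip3, Bnip3l, Ankrd37, P4ha1, P4ha2, Ero1a and Higd1a. A gene was read from probe sets listed with that gene alone, which left 10 probe sets of 8 genes, among 41345 probe sets and 22180 genes with a probe set of their own. Bnip3l and Ankrd37 shared their probe sets with another gene and are given no value. The 10 genes were chosen with the differences between these same groups in view, so their values are a description. No p-value of that difference is given for any of them, and the number past the test's threshold is given only as a count beside the share of all probe sets.

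All 6 samples were RAW 264.7 cells transfected with a GapmeR at 50 nM by means of a lipid reagent, and RNA was taken 48 h later. A GapmeR is a short antisense strand with locked ends whose DNA core lets RNase H cut the RNA it pairs with. The GapmeR was a non-targeting control in 3 samples (Control) and was directed against Mist, a macrophage long noncoding RNA, in the other 3 (Mist-targeted). The labels name 1 GapmeR against Mist and no change of oxygen. Nothing in them says that replicates were separate cultures, so SE and p-values cover only the spread seen among these samples, and that spread may be technical. The annotation names 0 probe sets Mist, so the target itself was not analysed here.

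HIF is a transcription factor made of an oxygen-regulated alpha subunit and the partner ARNT. With oxygen present, prolyl hydroxylases mark the alpha subunit for destruction through VHL, and in hypoxia the factor accumulates and binds short DNA elements that contain ACGTG or GCGTG. In macrophages the alpha subunit also accumulates after inflammatory signals. Its effectors include secreted vascular signals (Adm, Vegfa), receptors for the removal of mitochondria (Bnip3, Bnip3l), enzymes of collagen and of disulfide formation (P4ha1, P4ha2, Ero1a), and the stress or mitochondrial proteins encoded by Ndrg1 and Higd1a.

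The bases before the start of 6 of the measured genes are shown, because the elements to which HIF binds contain ACGTG or GCGTG. Binding was not tested. Each sequence is the 250 bases before a RefSeq start in build GRCm38.p6, written 5′ to 3′ along the gene's strand, and ACGTG on either strand (ACGTG or CACGT) is in capitals. The windows lie at chr7:110627407-110627656, plus strand for Adm, chr17:46032378-46032627, minus strand for Vegfa, chr7:138909507-138909756, minus strand for Bnip3, chr14:45318573-45318822, minus strand for Ero1a, chr10:59323046-59323295, plus strand for P4ha1, and chr11:54100674-54100923, plus strand for P4ha2.
Adm: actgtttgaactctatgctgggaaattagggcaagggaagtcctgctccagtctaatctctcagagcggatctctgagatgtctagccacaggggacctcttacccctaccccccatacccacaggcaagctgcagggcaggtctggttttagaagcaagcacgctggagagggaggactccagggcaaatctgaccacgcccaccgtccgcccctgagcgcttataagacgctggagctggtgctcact
Vegfa: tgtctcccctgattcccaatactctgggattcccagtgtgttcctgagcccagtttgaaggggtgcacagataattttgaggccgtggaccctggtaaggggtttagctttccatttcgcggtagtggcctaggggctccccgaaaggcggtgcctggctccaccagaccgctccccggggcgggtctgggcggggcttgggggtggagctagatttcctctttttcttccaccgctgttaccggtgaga
Bnip3: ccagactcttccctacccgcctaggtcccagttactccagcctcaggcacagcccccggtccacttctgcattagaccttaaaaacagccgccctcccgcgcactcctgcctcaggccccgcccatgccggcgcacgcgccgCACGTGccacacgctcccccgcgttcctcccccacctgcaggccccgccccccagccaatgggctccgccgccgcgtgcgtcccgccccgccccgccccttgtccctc
Ero1a: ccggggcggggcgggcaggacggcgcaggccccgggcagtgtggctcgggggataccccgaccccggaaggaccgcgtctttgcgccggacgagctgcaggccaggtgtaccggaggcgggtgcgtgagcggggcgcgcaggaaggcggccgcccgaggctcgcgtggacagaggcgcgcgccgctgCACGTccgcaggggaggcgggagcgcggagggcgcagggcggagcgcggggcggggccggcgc
P4ha1: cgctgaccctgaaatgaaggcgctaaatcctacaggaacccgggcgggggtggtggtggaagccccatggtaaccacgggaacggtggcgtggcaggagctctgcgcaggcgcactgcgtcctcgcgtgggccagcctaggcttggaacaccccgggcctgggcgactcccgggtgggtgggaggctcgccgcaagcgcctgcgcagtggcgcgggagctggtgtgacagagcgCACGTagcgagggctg
P4ha2: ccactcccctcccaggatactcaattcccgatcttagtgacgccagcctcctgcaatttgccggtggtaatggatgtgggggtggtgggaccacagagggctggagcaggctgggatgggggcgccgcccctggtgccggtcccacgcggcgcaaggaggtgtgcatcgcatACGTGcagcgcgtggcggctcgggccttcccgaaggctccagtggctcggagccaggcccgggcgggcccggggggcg

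Of the 8 measured genes, 7 had an entry in the promoter table, Vegfa with 2 starts. Ndrg1 and Bnip3l had none. The capital letters occur in 5 of the 7 genes. In Bnip3 the matches of both strands overlap as the palindrome CACGTG, beginning 108 bases before the start. In Ero1a the match began 63 bases before the start, in P4ha1 16 and in P4ha2 78. The Vegfa window shown has none. The window of its other start, at chr17:46025164-46025413, has 1, and Vegfa is among the 5 by that window alone. That window lies downstream of the window shown, so its letters come after the first start and not before it. The windows of Adm and Higd1a have none.

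Over all 32851 windows of this length, 16.6% held the letters marked in capitals and 6.02% the palindrome. The other core, GCGTG on either strand, was found in windows of 7 of the 7 genes and in 28.2% of all windows. For Vegfa it too was found only in the window of the downstream start. Among windows with a GC content of at least 60%, 23.0% held the capital letters and 53.9% the other core, and the GC content of the windows of the HIF effectors ranged from 56.8% to 80.8%. A match is a description of letters, and its absence says only that the letters are not in that window.

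A difference below is the Mist-targeted mean minus the Control mean in log2 units, with its SE from a limma fit over all probe sets. Before the values, 1 array has to be set apart. On Mist-targeted replicate 1, 9 of the 10 probe sets of the HIF effectors had their lowest value of the 3 Mist-targeted arrays, against 35.3% of all probe sets. Each difference of a HIF effector is therefore given with and without that array. The smallest p an exact permutation test of 3 against 3 arrays can give is 0.1. In RNA of whole cultures, fewer cells with a transcript and less of it per cell cannot be told apart.

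Adm, which encodes the vasodilator peptide adrenomedullin, had the widest difference of the 8 genes. Its log2 values were 9.40, 9.48 and 9.00 on the Control arrays and 4.34, 7.48 and 7.05 on the Mist-targeted arrays. The groups did not overlap, and Mist-targeted replicate 1 lay far below the other 2 and below the median of that array's probe sets, which was between 4.47 and 4.50 on every array. The mean was 8.03-fold lower (log2 difference -3.00 ± 0.73, SE, n = 3 per group). Without Mist-targeted replicate 1 it was 4.08-fold lower (-2.03 ± 0.19). A background level was not used here, so that array's floor is not known.

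Vegfa encodes vascular endothelial growth factor A, the main inducer of vessel growth. Its values were 8.52, 8.58 and 8.32 on the Control arrays and 6.02, 7.39 and 7.32 on the Mist-targeted arrays. Again the groups were apart, by 0.93 between the lowest Control and the highest Mist-targeted array, and replicate 1 was the low array. The difference was -1.57 ± 0.34 (SE, 2.96-fold lower), and -1.12 ± 0.11 without that replicate (2.18-fold lower).

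**Figure D1:**
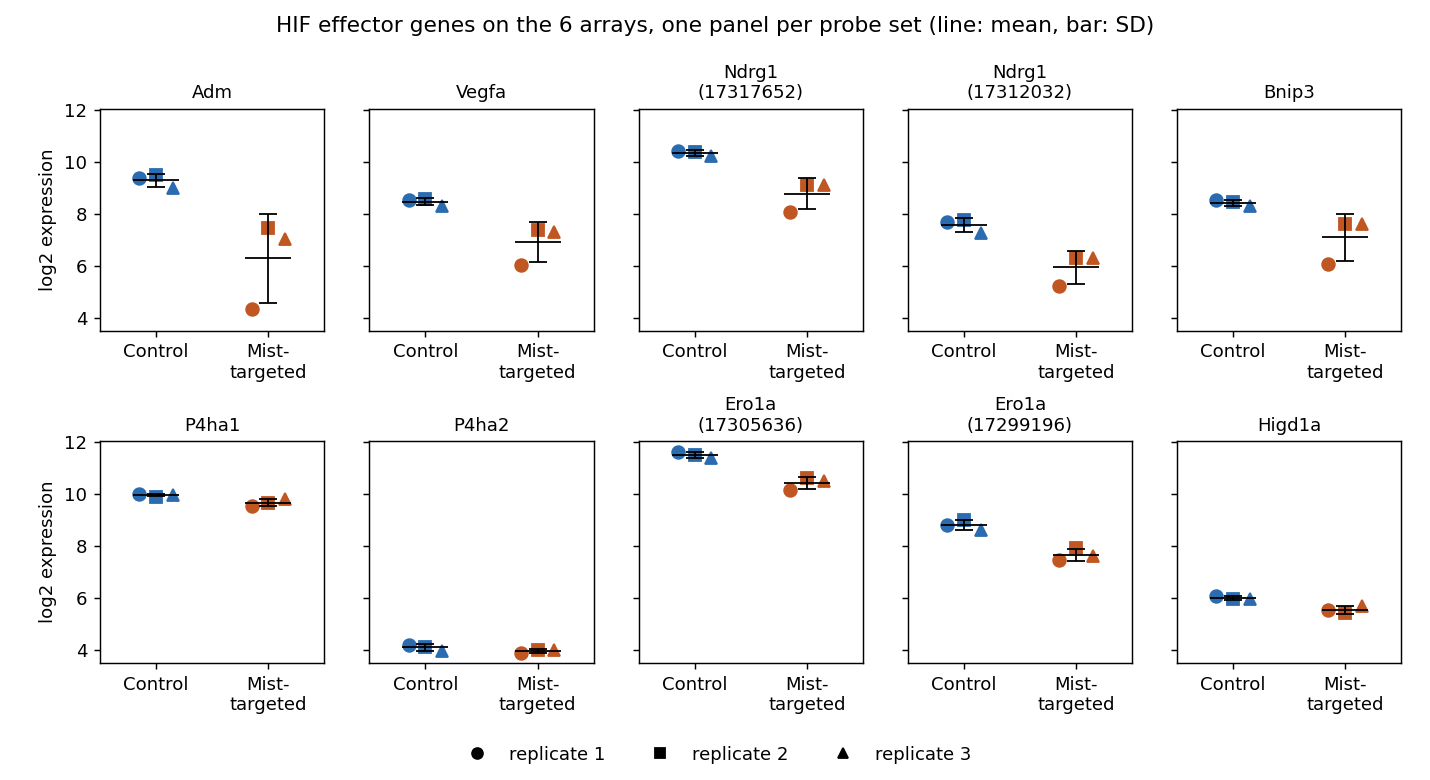
Log2 expression (vertical axis) of the 10 probe sets of the HIF effector genes on the 3 Control and 3 Mist-targeted arrays; markers give the replicate, lines the group mean and bars the SD. Control and Mist-targeted points are apart in 9 of the 10 panels, and the Mist-targeted replicate 1 circle is far below the others for Adm (4.34 against 7.48 and 7.05).

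On the receptor side of these signals 1 gene passed the test. Calcrl, the receptor that binds adrenomedullin when paired with a RAMP protein, rose 1.80-fold (log2 difference 0.85 ± 0.095, SE, limma adjusted p = 0.026), from 8.89, 8.88 and 8.92 to 9.88, 9.61 and 9.74. The adjusted p was 0.088 without Mist-targeted replicate 1, and the call also ended without Control replicate 1, 2 or 3 or Mist-targeted replicate 3, with an adjusted p of up to 0.15. Among 13 measured ligands and receptors around Adm and Vegfa, 1 rose, 0 fell and 12 did not pass, beside 0.212% of all genes that rose. The median difference of the 13 was 0.00, and that of all genes was 0.0069.

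Of the 13 genes 5, Calcrl included, had an unadjusted p under 0.05 (limma), as did 2447 of all 22180 genes. The VEGF-family ligand genes Vegfc and Pgf differed by -0.44 ± 0.11 and -0.48 ± 0.12, and the receptor and co-receptor genes Flt1 and Nrp1 by -0.49 ± 0.14 and -0.28 ± 0.092. These 4 were picked by that p, so their groups were likely to be apart. In each the Mist-targeted arrays all lay below the Control arrays, which held for 7.72% of all probe sets. Vegfb, Vegfd, Nrp2, Kdr and Adm2 differed by -0.01, 0.06, 0.00, 0.16 and 0.16, and the RAMP genes Ramp1, Ramp2 and Ramp3 by 0.17, -0.04 and 0.05. None of these 12 passed (limma, adjusted p of 0.19 or more). Of the 13 genes, 6 were below the array median on every array: Pgf, Vegfd, Adm2, Ramp1, Ramp2 and Ramp3. At such levels a small difference does not show that a transcript was present and unchanged.

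Ndrg1 encodes a cytoplasmic protein tied to growth arrest and differentiation, and was read at 2 probe sets. The brighter, 17317652, had values of 10.42, 10.40 and 10.21 on the Control arrays and 8.08, 9.13 and 9.10 on the Mist-targeted arrays. The dimmer, 17312032, had 7.68, 7.78 and 7.25 against 5.23, 6.30 and 6.32. Both showed the same order, with the groups apart and replicate 1 lowest. Their differences were -1.58 ± 0.27 and -1.62 ± 0.30 (SE), and -1.23 and -1.26 without Mist-targeted replicate 1.

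Of its paralogues, Ndrg2 differed by -0.52 ± 0.20, Ndrg4 by -0.32 ± 0.094 and Ndrg3 by -0.18 ± 0.11 (limma, adjusted p = 0.45, 0.28 and 0.69). Ndrg2 was also low on Mist-targeted replicate 1, at 8.11 beside 8.89 and 8.75, and without that array its difference was -0.28.

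Bnip3 encodes a protein of the outer mitochondrial membrane that recruits the autophagy machinery to mitochondria. Control values were 8.52, 8.47 and 8.31, and Mist-targeted values were 6.06, 7.63 and 7.61. Replicates 2 and 3 were nearly the same, and replicate 1 lay 1.56 below their mean. The difference of -1.33 ± 0.39 (SE, 2.51-fold lower) became -0.81 ± 0.10 (1.75-fold lower) without that array.

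Among 12 measured mitophagy receptors and adaptors 0 passed in either direction (limma; 2 had an unadjusted p under 0.05, as did 2447 of all 22180 genes), with a median difference of -0.07. The smallest p in that list was that of Sqstm1, the autophagy receptor p62, at -0.37 ± 0.082 (limma, adjusted p = 0.16). Higd1a, a small protein of the inner mitochondrial membrane that acts on respiratory complexes, was lower by less. Its values were 6.10, 5.96 and 5.96 on the Control arrays and 5.55, 5.42 and 5.72 on the Mist-targeted arrays, which did not overlap. It was the probe set of the 10 on which replicate 1 was not the lowest, and its difference was -0.44 ± 0.10 with and -0.43 ± 0.12 without that array. The related genes Higd1b and Higd2a differed by -0.10 ± 0.092 and -0.21 ± 0.10 (limma, adjusted p = 0.81 and 0.59). Higd1b was below the array median on every array.

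Ero1a encodes the endoplasmic reticulum oxidase that passes electrons from protein disulfide isomerase to oxygen. Probe set 17305636 gave 11.64, 11.51 and 11.40 on the Control arrays and 10.17, 10.62 and 10.51 on the Mist-targeted arrays. Probe set 17299196 gave 8.82, 9.00 and 8.63 against 7.46, 7.93 and 7.61. In both, the Mist-targeted arrays all lay below Control, with replicate 1 lowest. The Mist-targeted arrays spanned 0.45 and 0.47, and the Control arrays 0.24 and 0.37. The differences were -1.08 ± 0.13 and -1.15 ± 0.15 (SE), and -0.95 and -1.05 without replicate 1. Its paralogue Ero1b differed by -0.01 ± 0.092, and by 0.03 without Mist-targeted replicate 1 or without Control replicate 1. P4hb, the protein disulfide isomerase that is also the beta subunit of collagen prolyl hydroxylase, differed by -0.25 ± 0.12 (limma, adjusted p = 0.57), and by -0.13 without Mist-targeted replicate 1.

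P4ha1 and P4ha2 encode the catalytic alpha subunits of that hydroxylase. P4ha1 had values of 10.02, 9.91 and 9.98 on the Control arrays and 9.56, 9.67 and 9.81 on the Mist-targeted arrays, a difference of -0.29 ± 0.09 (SE), and -0.23 ± 0.10 without Mist-targeted replicate 1. P4ha2 had values from 3.98 to 4.22 on the Control arrays and from 3.90 to 4.03 on the Mist-targeted arrays, a difference of -0.14 ± 0.09, and -0.10 ± 0.11 without that array. The groups were apart by 0.10 for P4ha1 and overlapped for P4ha2, whose values were below the array median on all 6 arrays. The third alpha subunit gene, P4ha3, differed by -0.16 ± 0.082 (limma, adjusted p = 0.62), and was likewise below the array median on all 6 arrays. Of 7 measured genes of collagen modification 0 passed in either direction (limma; 2 had an unadjusted p under 0.05), with a median of -0.06, and 0.08 without Mist-targeted replicate 1. Plod2, a lysyl hydroxylase gene, had the smallest p among them, at -0.48 ± 0.098 (limma, adjusted p = 0.13).

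**Figure D2:**
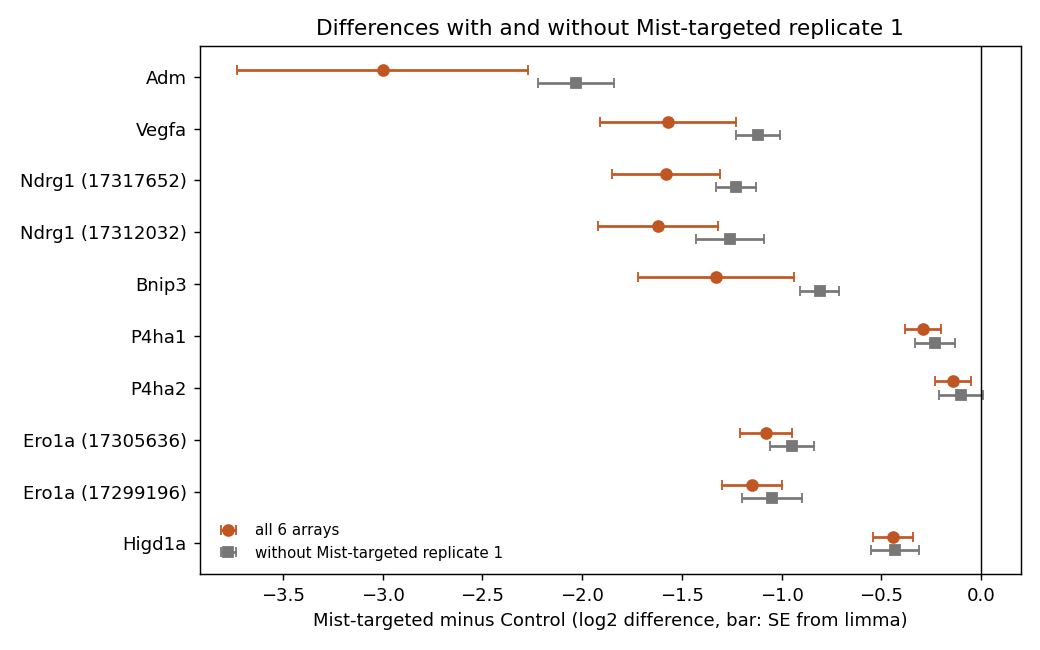
Mist-targeted minus Control log2 difference (horizontal axis) of each probe set, with all 6 arrays (circles) and without Mist-targeted replicate 1 (squares); bars are SE from limma. Without that array Adm moves from -3.00 to -2.03 and Bnip3 from -1.33 to -0.81, while Higd1a (-0.44 and -0.43) hardly moves.

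By the size of their differences the 8 genes made a wide and a narrow set. Adm, Ndrg1, Vegfa, Bnip3 and Ero1a were at least 2-fold lower, and Higd1a, P4ha1 and P4ha2 were 1.36-fold, 1.22-fold and 1.10-fold lower. The neighbours in this order, Ndrg1, Vegfa, Bnip3 and Ero1a, had differences whose SE overlapped or nearly met. At least 2-fold lower were 5 of the 8 genes, and 3 of the 8 without Mist-targeted replicate 1, against 0.126% and 0.0857% of all genes. The median of the 8 was -1.21, and -0.88 without that array.

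All 10 probe sets had a negative difference, and in 9 the groups did not overlap, against 7.72% of all probe sets with Mist-targeted below Control. At a limma adjusted p under 0.05 over all probe sets, 2 of the 10 were called lower, both of Ero1a, where 0.254% of all probe sets were called and 0.126% were called lower. With only the 23521 single-gene probe sets tested, 8 of the 10 were called, where 1.89% were called lower. These shares stand beside the counts because this contrast chose the genes, and nothing is read from them.

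At 9 of the 10 probe sets, all but that of P4ha2, the 3 Mist-targeted arrays spanned a wider range than the 3 Control arrays, against 54.4% of all probe sets. The range over the 3 arrays was 0.11 to 0.53 for Control and 0.12 to 3.14 for Mist-targeted. Against the Control mean, the median of the 8 genes was -1.81 on Mist-targeted replicate 1, -0.85 on replicate 2 and -0.91 on replicate 3.

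The Control arrays were also ordered alike. Control replicate 3 was the lowest of the 3 at 9 of the 10 probe sets, against 31.7% of all probe sets. Its gap to the mean of Control replicates 1 and 2 was -0.44 for Adm and -0.23 for Vegfa, with a median of -0.19 over the 8 genes and -0.0007 over all genes, and 0.02 for P4ha1. This order was looked for after the Mist-targeted arrays had been compared, and it was not tested.

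A further look at Mist-targeted replicate 1, chosen after seeing the data, used no Control array. Of 22180 genes, 6 (0.0271%) were at least 2-fold lower on Mist-targeted replicate 1 than the mean of replicates 2 and 3. Of these 6 genes 4 were HIF effectors: Adm (-2.93), Bnip3 (-1.56), Vegfa (-1.33) and Ndrg1 (-1.04). The other 2 were Ak4, a mitochondrial adenylate kinase and HIF target (-1.18), and Ccng2, a cyclin G gene (-1.03). By the same measure, 0 genes stood below on Mist-targeted replicate 2, 2 on replicate 3 and 0 on each Control array. Over all probe sets, listed with a gene or not, 113 (0.273%) were at least 2-fold lower on replicate 1. Since replicate 1 also entered the differences by which the genes were chosen, this count is a description.

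**Figure D3:**
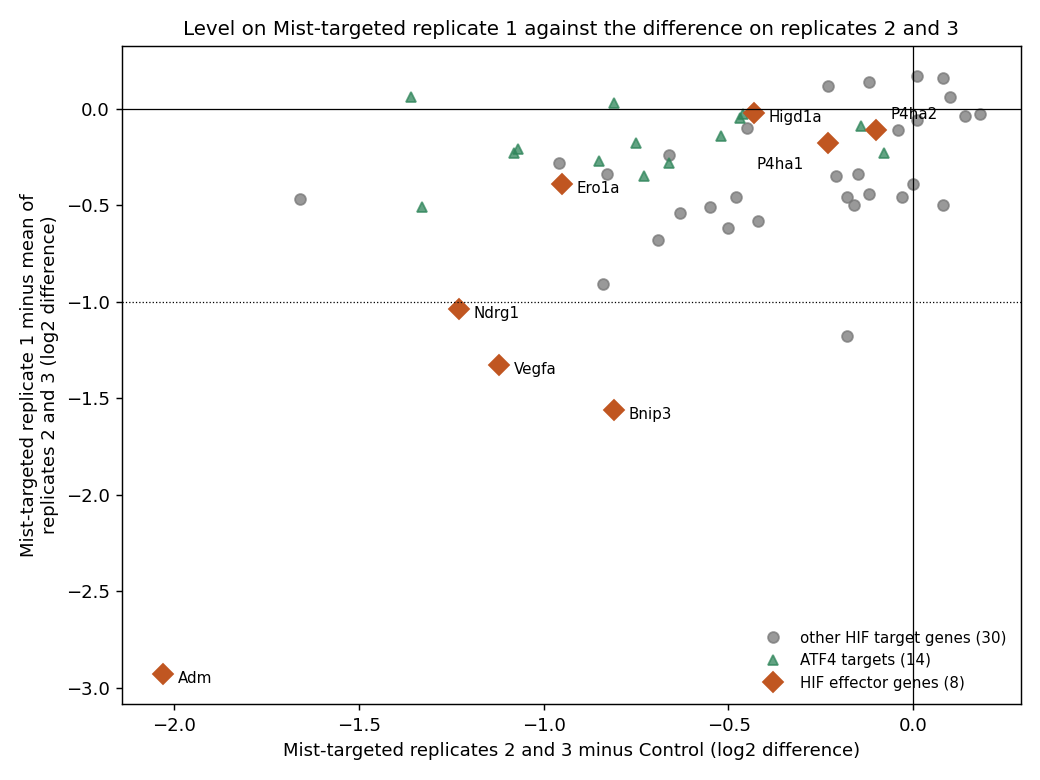
For each gene, the horizontal axis is the log2 difference of Mist-targeted replicates 2 and 3 from Control. The vertical axis is that of Mist-targeted replicate 1 from the mean of replicates 2 and 3. Diamonds are the 8 HIF effector genes, circles 30 other HIF targets and triangles the 14 genes of the ATF4 target list, Atf4 included. The dotted line marks a further 2-fold drop. Adm, Bnip3, Vegfa, Ndrg1 and the HIF target Ak4 lie below that line, and no ATF4 target does.

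Of 30 measured genes in the list of other HIF targets, 25 had a negative difference, 2 fell and 0 rose, where 0.203% of all genes fell. The median was -0.33, and -0.18 without Mist-targeted replicate 1. Ddit4, an inhibitor of mTORC1, fell by 1.82 ± 0.16 on the log2 scale (limma, adjusted p = 0.014), and Hilpda, which restrains lipolysis on lipid droplets, fell by 1.05 ± 0.14 (limma, adjusted p = 0.047).

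Neither call held in every fit that left out an array. The call of Hilpda ended without any of the 6 arrays in turn (limma, adjusted p of 0.062 to 0.20). The call of Ddit4 ended without Control replicate 1, 2 or 3 or Mist-targeted replicate 3 (limma, adjusted p of 0.070 to 0.090). Over all probe sets such fits called 2 to 40, against 105 with all 6 arrays. The differences then lay between -1.17 and -0.96 for Hilpda and between -1.96 and -1.66 for Ddit4. With only single-gene probe sets tested, 11 of the 30 passed, where 3.05% of all genes did. Replicate 1 was the lowest Mist-targeted array for 24 of the 30, where the share over genes was 36.0%, and its median gap to the other 2 was -0.37, beside -0.72 for the 8 HIF effectors.

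Transcripts of HIF and of its oxygen sensors had differences on both sides of 0. Of 13 measured HIF subunits and oxygen sensing genes, 8 were negative and 5 positive, with a median of -0.09, and 0 passed (limma; 2 had an unadjusted p under 0.05). Hif1a, the alpha subunit, picked with its value known, was 9.18, 8.99 and 9.08 on the Control arrays and 9.06, 9.00 and 8.93 on the Mist-targeted arrays (-0.09 ± 0.089; limma, adjusted p = 0.84). Egln3, a HIF prolyl hydroxylase gene that is itself a HIF target, had the smallest p (-0.60 ± 0.10, limma adjusted p = 0.081). Its values were low, at 4.53, 4.72 and 4.41 on the Control arrays and 3.89, 3.99 and 3.99 on the Mist-targeted arrays. The former are near the array medians and the latter below them. The paralogue Egln1, also picked with its value known, differed by -0.79 ± 0.14 (limma, adjusted p = 0.091).

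Targets of ATF4, the transcription factor of the integrated stress response, were lower on the same arrays, and their part in the values of the HIF effectors was not tested. The list of 14 measured genes includes Atf4 itself, which differed by -0.47 ± 0.076 (limma, adjusted p = 0.074). All 14 were on the negative side (median -0.80), and 7 fell, beside 0.203% of all genes. The largest were Aldh1l2, a mitochondrial folate enzyme (-1.50 ± 0.15), the cystine transporter Slc7a11 (-1.33 ± 0.095) and the pseudokinase Trib3 (-1.15 ± 0.14), at limma adjusted p values of 0.020, 0.0053 and 0.032. The call of Trib3 ended without any of the 6 arrays in turn (limma, adjusted p of 0.097 to 0.13), that of Aldh1l2 without Control replicate 1, 2 or 3 or Mist-targeted replicate 3 (0.090 to 0.11), and that of Slc7a11 without Control replicate 2 or Mist-targeted replicate 3 (0.050 to 0.057). Slc7a11 was read at its brightest probe set, and with the mean of its probe sets its difference was -0.94. The number called in the list was 0 to 3 when an array was left out, beside 1 to 34 of all genes. Among single-gene probe sets it was 12 of the 14, where 3.05% of all genes passed.

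On Mist-targeted replicates 1, 2 and 3 the ATF4 medians against Control were -0.94, -0.78 and -0.75. Their median gap on replicate 1 was -0.19, less deep than the -0.72 of the HIF effectors, a difference that was not tested.

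**Figure D4:**
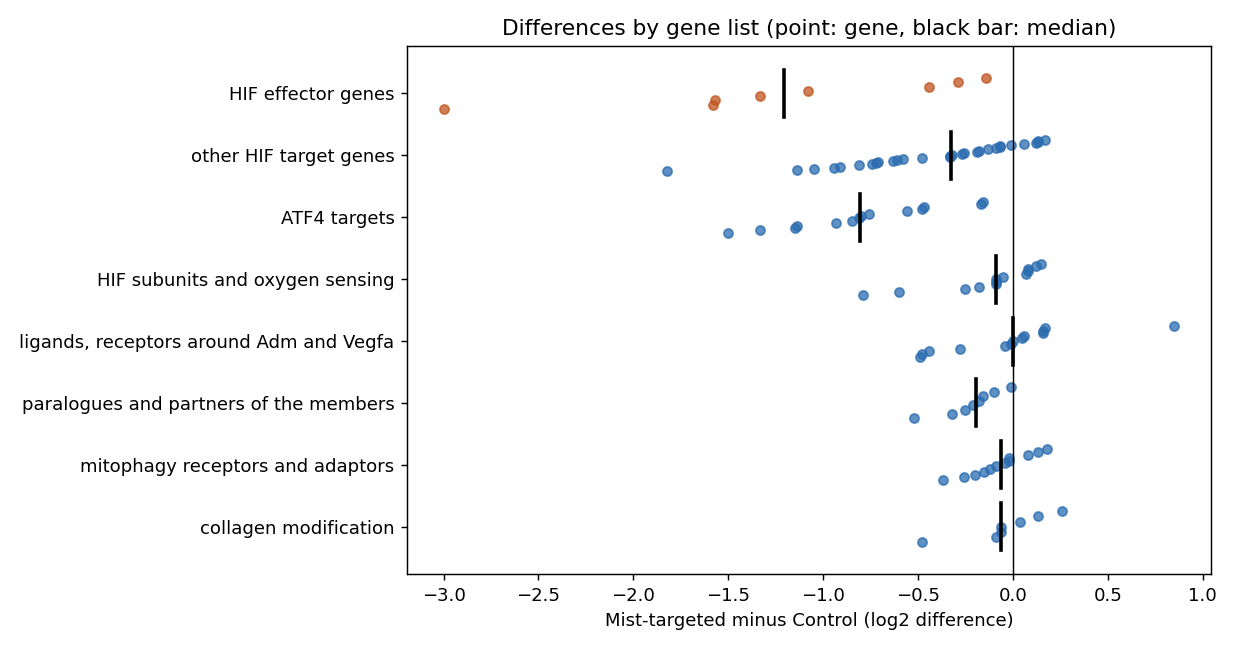
Mist-targeted minus Control log2 difference (horizontal axis) of every measured gene, by list; black bars are list medians. The HIF effectors (median -1.21), which were chosen on this contrast, and the ATF4 targets (-0.80) lie left of 0, while the subunits and oxygen sensors (-0.09) and the ligands and receptors (0.00) lie on both sides, with Calcrl at 0.85 on the right.

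Genes whose pattern over the 6 arrays was nearest to the mean of the 8 HIF effectors were ranked by root mean square distance in log2 units, after each gene's own mean was taken off. The mean pattern was 0.67, 0.63 and 0.47 on the Control arrays and -1.22, -0.26 and -0.29 on the Mist-targeted arrays. Of 22172 other genes, the nearest were Pfkfb3 (distance 0.079), Selenbp1 (0.14), Prelid2 (0.15), Slc2a1 (0.16), Fzd7 (0.16) and Ier3 (0.18). Pfkfb3 encodes an activator of glycolysis and Slc2a1 the glucose transporter GLUT1, and both stand on the list of other HIF targets. Slc2a1 was ranked at its brightest probe set, with a difference of -0.91, and with the mean of its probe sets the difference was -0.65.

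Pfkfb3 was 6.55, 6.58 and 6.52 on the Control arrays and 4.80, 5.82 and 5.60 on the Mist-targeted arrays, with the groups apart and replicate 1 lowest. Its difference was -1.14 ± 0.24 (limma, adjusted p = 0.14). None of the 6 passed, with the smallest adjusted p at Selenbp1 (0.055). Among the HIF effectors the distance from their own mean was 0.19 for Ero1a, 0.20 for Ndrg1, 0.22 for Bnip3 and 0.24 for Vegfa. It was 0.49 to 0.59 for the 3 genes with narrow differences, and 1.1 for Adm, which weighs most in the mean.

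**Figure D5:**
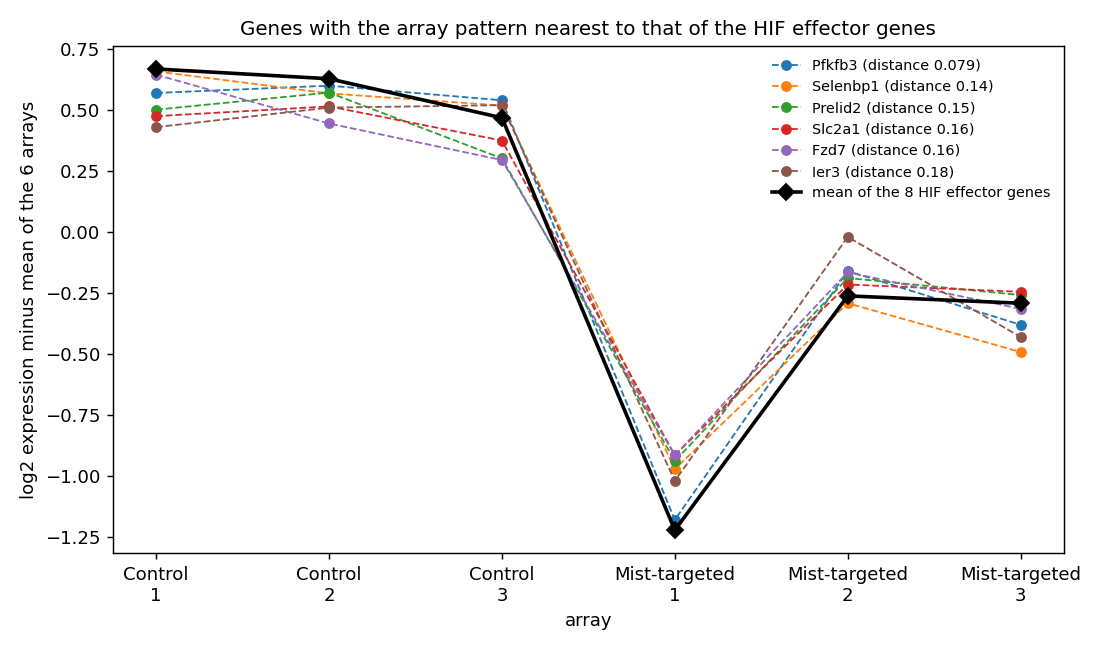
Log2 expression minus the gene's mean over the 6 arrays (vertical axis), by array; the solid line is the mean of the 8 HIF effector genes and dashed lines are the 6 nearest other genes. All 7 lines are lowest on Mist-targeted replicate 1, where the HIF effector mean is -1.22.

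The labelled cell type was checked against marker genes. The 10 macrophage markers had mean levels of 4.72 to 12.80 and none was below the array median on every array. Markers of fibroblasts (7), endothelial cells (8), epithelial cells (5) and T and B cells (6) had levels of 3.41 to 4.97, near or below the array medians. In these lists 5, 4, 1 and 5 markers were below the array median on every array. The lowest macrophage level, 4.72, lay within the range of these other markers. Of these 36 markers 0 passed (limma, adjusted p under 0.05 over all probe sets), and 5 had an unadjusted p under 0.05, 3 of them macrophage markers. The mean level of the macrophage list was 9.55 to 9.60 on the Control arrays and 9.51 to 9.61 on the Mist-targeted arrays.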

How the data were processed

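RNA of 6 samples (5 µg each) was labelled with biotin and read on Affymetrix arrays, per the labels' protocols. Each array's deposited column holds log2 expression values, from 2.50 to 14.08 over the table. The submitters' processing notes name RMA, which corrects background, quantile-normalizes and summarizes probe sets, and Partek. The version of either is not given in the sources used here. Since RMA forces a common distribution, a shift of most transcripts would be reduced.

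Platform annotation gave 23521 probe sets 1 gene symbol and 1814 several, and 16010 were not listed. A gene with several probe sets was read in lists at the brightest. Differences and SE come from the limma package, version 3.58.1, under R 4.3.3, with lmFit and eBayes and group as the only term, checked on simulated data, with Benjamini-Hochberg adjustment over 41345 probe sets. Python 3.11.15 joined tables. The precision is limited by the number of arrays (median SE 0.11).

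The genes, lists and tests were chosen with earlier results of these data known. Named besides the HIF effectors are their paralogues and partners, up to 3 called genes per list (else the smallest p), and the 6 nearest patterns. Hif1a, Egln1, Atf4, Ak4, Ccng2 and the other ligands and receptors were named after their values were known. Alternatives were a replicate block, trend and robust eBayes, no moderation, dropping the 40% of probe sets with the lowest mean, single-gene probe sets only, median centring, quantile normalization, the mean of a gene's probe sets, and leaving out each array. List medians without Mist-targeted replicate 1 were added after seeing the data.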

Additional observations from a re-analysis of the deposited data

How the results depend on the processing

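Of 129 differences of the HIF effector probe sets under the alternatives, 80 came from settings that can move a difference, namely median centring, quantile normalization and leaving out an array. All 80 were negative, which for probe sets with groups apart leaving out an array cannot change. The first 2 could move the differences only by little, because RMA values are already quantile-normalized (Adm to -3.01 and -3.02). Leaving out an array gave -3.60 to -2.03 for Adm and -1.59 to -0.81 for Bnip3. The median of the 8 genes lay between -1.38 and -0.88 when an array was left out. P4ha2 fell out without the dimmest 40% of probe sets, which left 9 probe sets. Counts of calls depended on the setting. Of all probe sets, 105 were called, 287 with trend and robust and 161 without the dimmest 40%. Among single-gene probe sets 713 were called, where fewer were tested and eBayes was also fitted anew on them alone. There the limma adjusted p of Ddit4 moved from 0.014 to 4.3e-05 at the same difference of -1.82. What raised the count was not tested. Leaving out an array gave 2 to 40 calls over all probe sets, and 0 to 1 of the HIF effector probe sets in place of 2.

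With the replicate block, and likewise without moderation, 0 probe sets were called, 0 of the HIF effectors, 0 of the other HIF targets, 0 of the ligands and receptors and 0 ATF4 targets, while 4368 and 4106 probe sets had an unadjusted p under 0.05, against 4009 in the reported fit; the differences themselves are the same by construction. The numbers were not taken to pair the samples, because the labels state no batch or covariate. Deviations from the group means correlated at 0.20, 0.10 and 0.03 for replicates 1, 2 and 3, all above 0. Of 6 samples, 5 correlated best with their own number. Whether the numbers pair the samples is therefore not known, and the calls reported here rest on the unpaired fit.

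Among single-gene probe sets only, 8 HIF effector probe sets, 11 other HIF targets, 12 ATF4 targets, 3 ligands and receptors, 2 HIF subunits and oxygen sensors, 1 mitophagy gene and 1 collagen gene were called. With the mean of a gene's probe sets these were 12 other HIF targets, 12 ATF4 targets, 3 ligands and receptors, 2 subunits and sensors, 1 mitophagy and 1 collagen gene. Of all genes, 677 were called in the first of these settings and 698 in the second, against 92 in the reported fit. Other HIF targets called were 4 with quantile normalization, with trend and robust, or without the dimmest 40%, and 1 with median centring. Of all genes these settings called 103, 241, 140 and 88, in that order. Trend and robust called 1 mitophagy gene. Leaving out an array gave 0 to 1 other HIF targets, 0 to 1 ligands and receptors and 0 to 3 ATF4 targets, beside 1 to 34 of all genes. Of 320 values for the 23 other genes named by rule, 256 kept direction and side of the threshold, 40 lost the call, 22 gained it and 2 changed sign, both of Ero1b, whose difference lay between -0.06 and 0.03 when an array was left out and was above 0 without Control replicate 1 or Mist-targeted replicate 1. The cause of these shifts was not tested.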
